A study of Mus musculus with 45 samples.

Results

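The SLC25 family holds the carrier proteins of the inner mitochondrial membrane, and its transcripts were followed here in the hearts of mice that differed in diet and in exposure to cigarette smoke. The genes were taken by name: every gene whose annotated symbol starts with Slc25a, except Slc25a20 and Slc25a37, with the probe set of the highest mean over the 45 arrays standing for its gene. This gave 31 of the 12393 genes on the array, covered by 62 probe sets. Of these 31 genes, 28 were bright enough to be tested, among 9295 genes tested in all.

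SLC25 proteins share a fold of repeated membrane-spanning segments and pass metabolites between the cytosol and the mitochondrial matrix, usually as an exchange. In heart muscle the most abundant of them export ATP and import ADP and phosphate for oxidative phosphorylation. Others carry the dicarboxylates and amino acids of the malate-aspartate shuttle, and others again bring in cofactors, nucleotides, iron and methyl donors that mitochondria take from the cytosol.

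All mice were male C57BL/6 animals, 15 weeks old when exposure began. Regular weight (RW) mice ate a diet with about 5 kcal% fat (PMI 5002), and diet-induced obese (DIO) mice ate one with 60 kcal% fat (D12492) for 9 weeks before exposure, starting at 6 weeks of age. Exposure was nose-only, to filtered air in sham controls (SC) or to the mainstream (MS) or sidestream (SS) smoke of cigarettes, for 5 h a day on 8 days within 2 weeks, and were killed the day after. There were 8 arrays of RW-SC, 8 of RW-MS, 7 of RW-SS, 8 of DIO-SC, 6 of DIO-MS and 8 of DIO-SS, each from the total RNA of a heart. The labels call them biological replicates. The title of the series asks whether a high-fat diet blunts the transcriptional answer of the heart to smoke, so smoke was compared with air in each diet, the diets with each other at each exposure, and the smoke effects between diets. Levels are given on the log2 scale. A change is the mean log2 level of one group minus that of another, ± its standard error (SE) from the limma model, and adjusted p is limma's p-value after Benjamini-Hochberg adjustment over all genes tested. A change is called when its adjusted p is below 0.05.

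Array medians lay between 6.20 and 6.24. The tissue is labelled heart, and the mean of 8 cardiomyocyte markers was between 13.59 and 13.63 in every group. Arrays RW-MS 2, 6 and 8 held few atrial transcripts (the mean of 8 atrial markers was 7.15 in the lowest of them and at least 10.37 on every array of the other groups), so the counts and carrier calls on RW-MS are also given without them. Array RW-SS 7 had a Gapdh 3′ minus 5′ difference of 0.94, against at most 0.40 elsewhere, a measure that rises as RNA gets shorter. The mean of the 5 tested red cell markers was 7.93 in RW-SC and 8.64 in RW-SS (5 of 5 called). That of the 5 tested white fat cell markers was 8.18 in RW-SC and 6.89 in DIO-SC (1 of 5 called). In whole hearts, fewer cells of a type and less RNA per cell cannot be told apart.

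The median carrier moved little in every comparison, and both higher and lower members were called in most. Mainstream smoke against air in RW mice gave 4 carriers higher and 1 lower of 28 (17.9%, where 6.86% of all 9295 genes tested were called in either direction). Without RW-MS 2, 6 and 8, or without RW-MS 8 alone, 1 carrier was called there. Of all genes 4.09% were called without these 3 arrays. Sidestream smoke in RW mice gave 5 higher and 2 lower (7 of 28, against 24.6% of all genes). With the red cell mean in the model 4 carriers were called, and 462 genes higher and 507 lower over all 9295. In DIO mice mainstream smoke gave 2 higher (7.14%, against 4.55%) and sidestream smoke 6 higher and 1 lower (7 of 28, against 31.8%). After a further quantile normalization the last split became 4 higher and 2 lower, and that of all genes went from 2140 higher and 820 lower to 1081 and 993. The obese diet in air gave 5 higher and 4 lower (32.1%, against 20.2%, or 5 of 28 against 17.9% of all genes with the mean of all probe sets of a gene), under mainstream smoke 3 higher and 3 lower (21.4%, against 10.6%) and under sidestream smoke 6 higher and 4 lower (35.7%, against 32.6%). Without RW-MS 2, 6 and 8 all 6 diet calls under mainstream smoke held, with Slc25a26 at 0.23, Slc25a30 at 0.25, Slc25a42 at 0.40, Slc25a28 at -0.17, Slc25a13 at -0.28 and Slc25a35 at -0.41. Without RW-SS 7 there were 6 calls for sidestream smoke in RW mice and 10 for diet under sidestream smoke (shares of all genes not given here). The median change of the 28 carriers lay between -0.016 and 0.055 in these comparisons, beside -0.024 to 0.042 for all genes. Changes were small: the largest was 0.46, a fold of 1.38, for Slc25a42. Single comparisons called up to 32.6% of all genes, and the share called in at least 1 is not given here. Of the 28 tested carriers, 20 were called in at least 1 comparison. The other 8 (Slc25a3, Slc25a4, Slc25a11, Slc25a14, Slc25a15, Slc25a23, Slc25a44 and Slc25a48) were called in none, although other probe sets of Slc25a4 and Slc25a44 differed, as described further on.

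**Figure D1:**
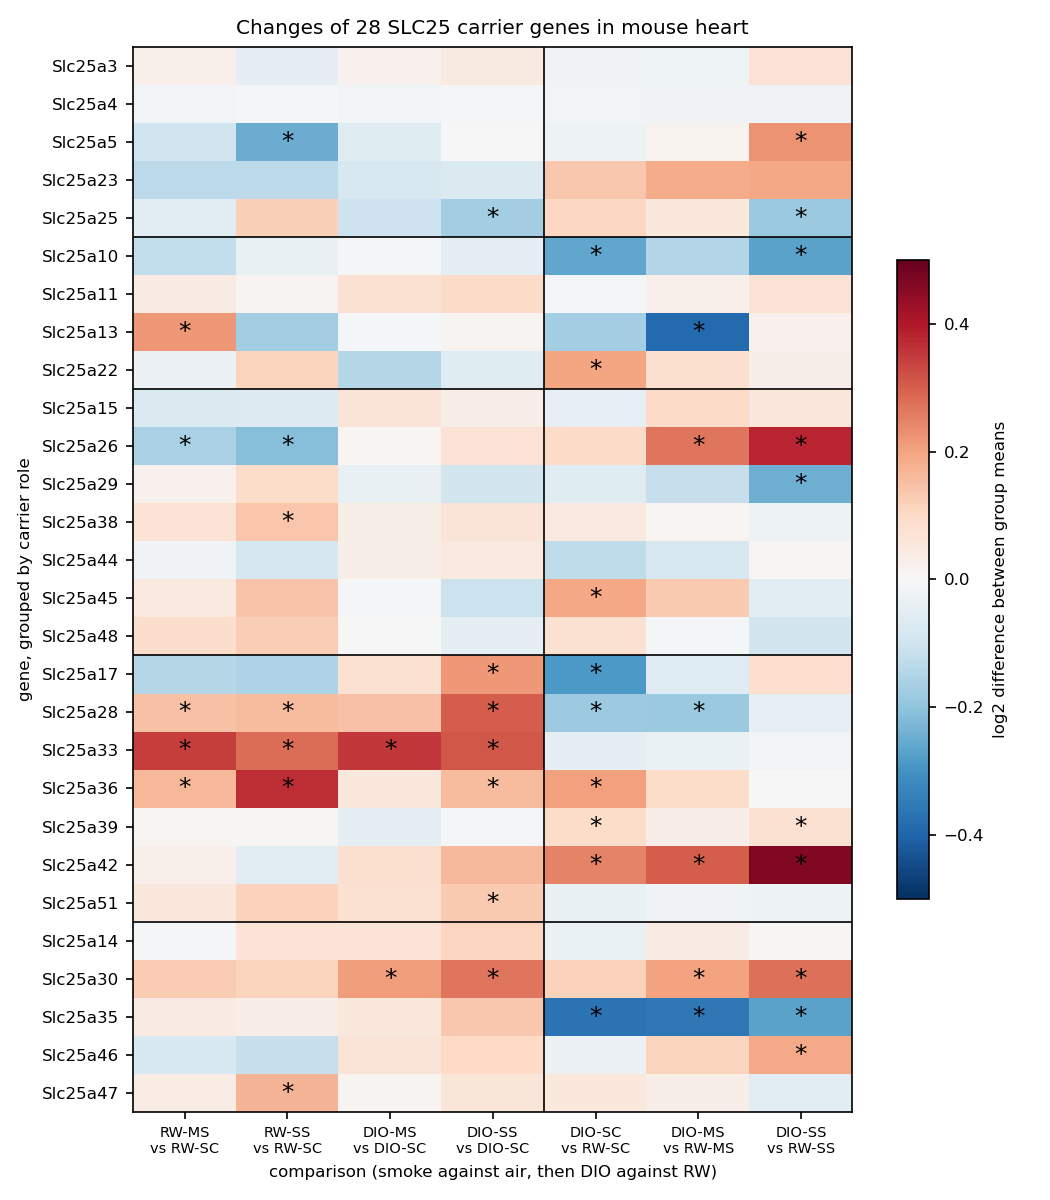
Log2 differences between group means for the 28 tested SLC25 genes (rows, grouped by the kind of substrate) in 7 comparisons (columns, smoke against air and then DIO against RW). Red is higher and blue lower in the group named first, and a star marks an adjusted p below 0.05. Slc25a33 is red with a star in all 4 smoke columns, and Slc25a42 in all 3 diet columns.

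Carriers of cofactors, nucleotides, glutathione and iron held most of the calls under smoke over the comparisons with air pooled, though not within each. The group as a whole was not tested. Of 7 tested, 3 rose with mainstream smoke and 3 with sidestream smoke in RW mice, and in DIO mice 1 and 5, where 2.86%, 11.7%, 3.66% and 23.0% of all genes were called higher. Without RW-MS 2, 6 and 8 the 3 with mainstream smoke in RW mice became 1, and after a further quantile normalization the 5 in DIO mice became 3. Slc25a33 and Slc25a36, both carriers of pyrimidine nucleotides that feed mitochondrial DNA and RNA synthesis, were among those that rose. The promoter letters before the start sites of this pair are shown because both rose in RW mice with either smoke and carry the same 6-letter motif. They are the 250 bases upstream of the RefSeq start on the minus strand of build GRCm38.p6, chr4:149774268-149774517 for Slc25a33 and chr9:97111042-97111291 for Slc25a36, 5′ to 3′, with the E-box CACGTG in capitals:
Slc25a33: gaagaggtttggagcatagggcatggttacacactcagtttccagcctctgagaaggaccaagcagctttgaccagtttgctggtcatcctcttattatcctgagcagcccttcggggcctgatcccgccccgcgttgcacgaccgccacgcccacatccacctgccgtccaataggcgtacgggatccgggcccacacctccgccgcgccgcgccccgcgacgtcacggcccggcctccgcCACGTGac
Slc25a36: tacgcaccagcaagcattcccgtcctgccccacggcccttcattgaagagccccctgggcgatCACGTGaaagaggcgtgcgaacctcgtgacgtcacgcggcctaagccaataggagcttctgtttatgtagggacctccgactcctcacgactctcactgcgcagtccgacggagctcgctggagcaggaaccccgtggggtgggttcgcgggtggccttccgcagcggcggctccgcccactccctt
The E-box, the letters bound by basic helix-loop-helix factors such as the clock and MYC proteins, starts at position -8 in Slc25a33 and at -187 in Slc25a36. RefSeq promoters (250 bases before to 50 after the start, both strands searched) were at hand for 25 of the 31 genes. These genes had 34 promoters. The E-box stood in 6 of the 34 (those of Slc25a13, Slc25a14, Slc25a15, Slc25a33 and Slc25a36), and in 7.15% of all 32851 promoters. The cyclic AMP response element TGACGTCA stood in 2 of the 34, of Slc25a25 and Slc25a36 (1.79% of all promoters). The antioxidant response core TGACNNNGC stood in 11 of the 34, from 8 genes with Slc25a33 among them (12.4% of all promoters). The direct repeat of nuclear receptor half-sites with a single spacer base (DR1) was found in no member's window (0.0396% of all promoters). A match describes the letters only.

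Slc25a33 rose in both diets and with both smokes, by 1.21-fold to 1.28-fold. In RW mice its level ran from 8.47 to 8.77 in air (median 8.69), from 8.76 to 9.22 with mainstream smoke (median 9.01) and from 8.72 to 9.05 with sidestream smoke (median 8.95). In DIO mice it ran from 8.39 to 8.80 in air (median 8.64), from 8.75 to 9.25 with mainstream smoke (median 8.91) and from 8.88 to 8.97 with sidestream smoke (median 8.90). Only the last of these 4 smoke groups lay wholly above its air group, and the others overlapped it at the edge. The changes were 0.34 ± 0.06 (adjusted p = 0.000388) and 0.28 ± 0.07 (adjusted p = 0.00176) for mainstream and sidestream smoke in RW mice, with every smoke array above the air mean. In DIO mice they were 0.36 ± 0.07 (adjusted p = 0.00157) and 0.31 ± 0.06 (adjusted p = 0.000352), again on every smoke array. The 4 calls held in every alternative tried and without any 1 array. Without RW-MS 2, 6 and 8 the RW mainstream change was 0.28 (adjusted p = 0.0153). Diet made no called difference to Slc25a33 in air (-0.04 ± 0.06), and the sidestream effect differed between diets by 0.03 ± 0.09 (adjusted p = 0.832).

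**Figure D2:**
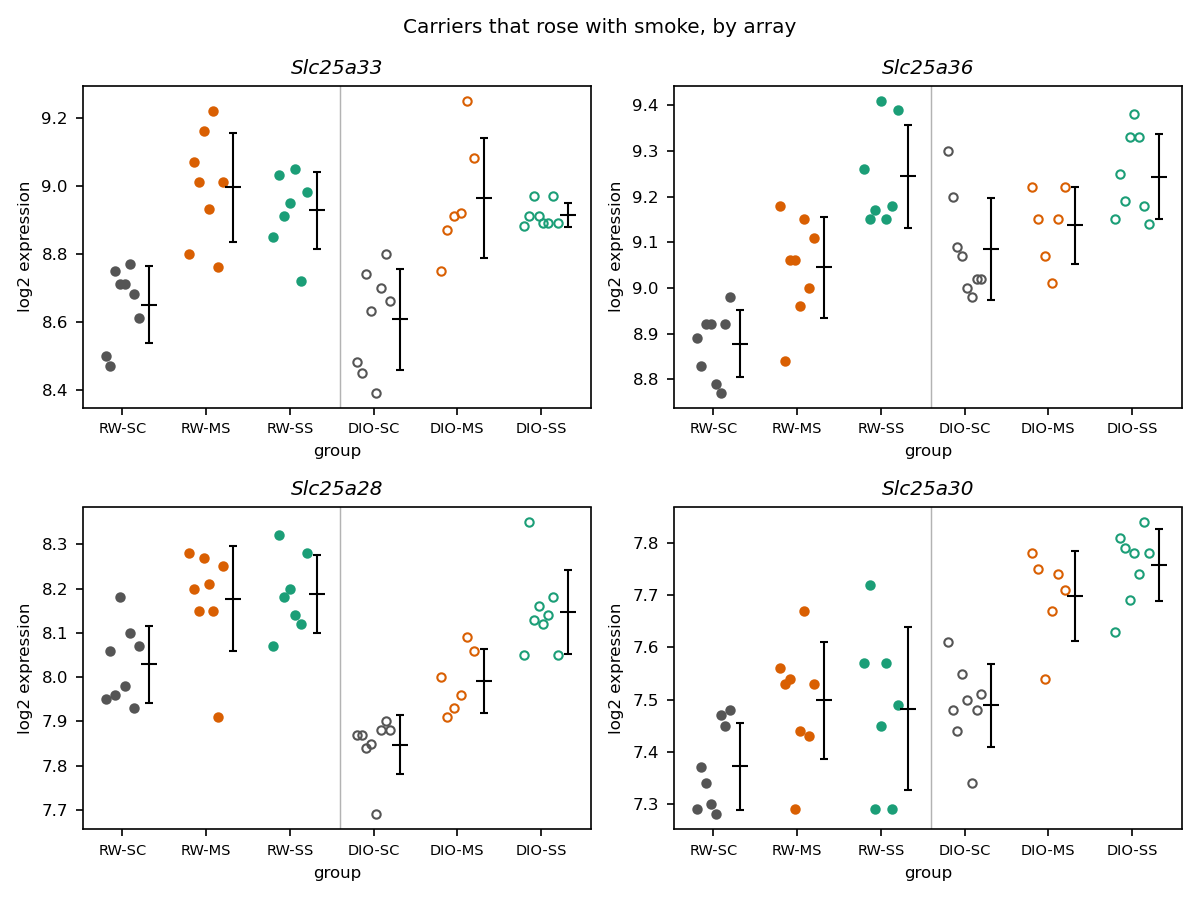
Log2 expression of Slc25a33, Slc25a36, Slc25a28 and Slc25a30 (vertical axes, each on its own range) by group (horizontal axis), 1 point per array, filled for RW and open for DIO, with the group mean ± SD beside it. All 8 DIO-SS points of Slc25a33 (8.88 to 8.97) lie above all 8 DIO-SC points (8.39 to 8.80), and all 7 RW-SS points of Slc25a36 (9.15 to 9.41) above all 8 RW-SC points (8.77 to 8.98).

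Slc25a36, the second pyrimidine nucleotide carrier, followed sidestream smoke more than mainstream smoke in RW mice. Its level (1419657_a_at) was 8.77 to 8.98 in RW air (median 8.90), 8.84 to 9.18 with mainstream smoke (median 9.06) and 9.15 to 9.41 with sidestream smoke (median 9.18), so sidestream and air did not overlap. The changes were 0.37 ± 0.05 for sidestream (adjusted p = 8.93e-07) and 0.17 ± 0.05 for mainstream smoke (adjusted p = 0.0314), and sidestream exceeded mainstream by 0.20 ± 0.05 (adjusted p = 0.0146). The mainstream call ended without RW-MS 2, 6 and 8 (0.17, adjusted p = 0.0584), and the difference between smokes ended when only both groups were fitted (adjusted p = 0.148). Without these 3 arrays that difference was 0.19 (adjusted p = 0.0343). In DIO mice the level was already 8.98 to 9.30 in air (median 9.04), 0.21 ± 0.05 above RW air (adjusted p = 0.00244), and rose with sidestream smoke by 0.16 ± 0.05 (adjusted p = 0.0122). That smaller rise differed from the RW one by -0.21 ± 0.07 (adjusted p = 0.0257). It was lost after a further quantile normalization (adjusted p = 0.137), and the difference between diets without RW-SS 4 (adjusted p = 0.0545). A second, dimmer probe set of the gene (1419656_at, mean 5.48) did not show the RW response, with -0.00 ± 0.08 for sidestream and -0.06 ± 0.07 for mainstream smoke, and gave a difference between diets of the other sign (0.21 ± 0.11, adjusted p = 0.123). It did not show the diet difference in air (-0.02 ± 0.07), rose in DIO sidestream mice by 0.21 ± 0.07 (adjusted p = 0.0251), and was higher in DIO than in RW sidestream mice by 0.20 ± 0.08 (adjusted p = 0.0415), where the brighter one differed by -0.00 ± 0.05.

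Slc25a28, mitoferrin 2, which brings iron into mitochondria outside the red cell lineage, was lower in obese mice in air and rose with sidestream smoke. In DIO mice all 8 air arrays (7.69 to 7.90, median 7.87) lay below all 8 sidestream arrays (8.05 to 8.35, median 8.14), a change of 0.30 ± 0.05 (adjusted p = 5.75e-06). They also lay below all 8 RW air arrays (7.93 to 8.18, median 8.02), by -0.18 ± 0.05 (adjusted p = 0.00363). Both calls held in every alternative and without any 1 array. In RW mice the rises were 0.16 ± 0.05 with sidestream (adjusted p = 0.0121) and 0.15 ± 0.05 with mainstream smoke (adjusted p = 0.0417), to 8.07 to 8.32 and 7.91 to 8.28. The mainstream call ended without RW-MS 2, 6 and 8 (0.13, adjusted p = 0.168), and both ended with the red cell mean in the model (adjusted p = 0.0748 and 0.104). The DIO mainstream group was below RW-MS by -0.18 ± 0.05 (adjusted p = 0.0107). The difference of the sidestream effects was not called for Slc25a28.

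Slc25a42, which imports coenzyme A, the carrier of acyl groups in fatty acid oxidation, was higher in obese mice at every exposure. In air its level was 6.91 to 7.21 in RW mice (median 7.06) and 6.97 to 7.48 in DIO mice (median 7.33), a difference of 0.25 ± 0.07 (adjusted p = 0.0151). Under mainstream smoke it was 6.77 to 7.28 (median 7.10) against 7.18 to 7.55 (median 7.35), a difference of 0.30 ± 0.08 (adjusted p = 0.0105). Under sidestream smoke all 8 DIO arrays (7.31 to 7.60, median 7.46) lay above all 7 RW arrays (6.73 to 7.29, median 6.98), by 0.46 ± 0.08 (adjusted p = 1.66e-05). The groups overlapped in air and under mainstream smoke, where 7 of 8 and 6 of 6 DIO arrays were above the RW mean. With the white fat cell mean in the model the difference in air was 0.20 (adjusted p = 0.0574), which ends that call.

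Slc25a17, which carries coenzyme A and nucleotide cofactors into peroxisomes, not mitochondria, fell with the obese diet in air and rose with sidestream smoke in obese mice. Its level was 6.56 to 6.93 in RW air (median 6.64), 6.30 to 6.56 in DIO air (median 6.43) and 6.39 to 6.83 in DIO sidestream smoke (median 6.68). The changes were -0.29 ± 0.06 for diet (adjusted p = 0.00118) and 0.22 ± 0.06 for smoke (adjusted p = 0.00926, 6 of 8 arrays above the air mean). RW sidestream mice were at 6.32 to 6.69 and changed by -0.15 ± 0.07 (not called), so that the effect of sidestream smoke differed between diets by 0.37 ± 0.09 (adjusted p = 0.00318). The 3 Slc25a17 calls were lost when all probe sets of the gene were averaged (adjusted p = 0.351, 0.897 and 0.787).

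The other cofactor carriers moved less. Slc25a39, the glutathione importer, was higher in obese mice in air by 0.09 ± 0.03 (adjusted p = 0.0232) and under sidestream smoke by 0.08 ± 0.03 (adjusted p = 0.0481). The first Slc25a39 call ended without RW-SC 2 or DIO-SC 6 (adjusted p = 0.0584 and 0.0558), and the second in a fit of both groups alone (adjusted p = 0.145). Slc25a51, the NAD importer, rose with sidestream smoke in DIO mice by 0.13 ± 0.05 (adjusted p = 0.0326). The Slc25a51 call was lost after a further quantile normalization (adjusted p = 0.27), without DIO-SS 8 (0.0941), DIO-SC 3 (0.0616), DIO-SC 7 (0.0574) or DIO-SS 4 (0.0526).

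Among the adenine nucleotide and phosphate carriers, which serve ATP synthesis, 1 of 5 tested was called in RW sidestream mice and 1 in DIO sidestream mice, where 24.6% and 31.8% of all genes were called. Slc25a5, the adenine nucleotide translocator of many tissues, ran from 12.52 to 12.66 in RW air (median 12.58) and from 11.92 to 12.52 with sidestream smoke (median 12.40), a change of -0.25 ± 0.05 (adjusted p = 0.000607). The 11.92 was array RW-SS 7, the one with the high Gapdh difference, and without it the change was -0.18 (adjusted p = 0.00143). In DIO mice the level was 12.43 to 12.67 in air and 12.45 to 12.65 with sidestream smoke (0.00 ± 0.05). The effect of sidestream smoke on Slc25a5 differed between diets by 0.25 ± 0.07 (adjusted p = 0.0112), which was lost after a further quantile normalization (adjusted p = 0.0577) and in the mean of all probe sets (adjusted p = 0.635).

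Slc25a25, a calcium-regulated carrier that exchanges ATP-magnesium for phosphate, ran the other way. Its level was 6.83 to 7.06 in DIO air (median 6.96) and 6.56 to 6.90 in DIO sidestream smoke (median 6.82), a change of -0.17 ± 0.05 (adjusted p = 0.0136, 8 of 8 arrays below the air mean). In RW mice it was 6.74 to 7.03 in air and 6.86 to 7.06 with sidestream smoke (0.12 ± 0.06, not called). The sidestream effects differed by -0.29 ± 0.08 (adjusted p = 0.00602), in every alternative and without any 1 array. The phosphate carrier Slc25a3, between 13.07 and 13.44 on all arrays, and the heart's main translocator Slc25a4, between 14.16 and 14.28, were not called in any comparison.

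The probe sets of the adenine nucleotide translocators disagreed. For Slc25a4 the 2 brightest (1424562_a_at and 1455069_x_at, means 14.22 and 14.19) sat near the top of the range of all values, which was 14.77, and changed by between -0.02 and 0.01 with smoke. Another (1434897_a_at, mean 11.36) rose in all 4 smoke comparisons, by 0.16 ± 0.03 (adjusted p = 0.00112) and 0.26 ± 0.03 (adjusted p = 1.21e-07) for mainstream and sidestream smoke in RW mice, and by 0.16 ± 0.03 (adjusted p = 0.00335) and 0.24 ± 0.03 (adjusted p = 8.03e-07) in DIO mice. The dimmest Slc25a4 probe set (1424563_at, mean 7.82) rose in DIO sidestream mice by 0.21 ± 0.06 (adjusted p = 0.00332) and was not called with the other smoke groups. These p-values come from a fit of every probe set. For Slc25a5 the 4 brightest probe sets of 8 fell together in RW sidestream mice (-0.19 to -0.25), while 3 dim ones (1438545_at, 1438360_x_at and 1438922_x_at) fell in DIO sidestream mice by -0.26, -0.31 and -0.23 (adjusted p = 0.0271, 0.0113 and 0.0194) (where the brightest 2 changed by 0.00 and -0.02), and the last of these also fell in RW sidestream mice (-0.25, adjusted p = 0.0142). Slc25a44, a carrier of branched-chain amino acids, had a probe set (1456465_at, mean 6.25) that rose in RW sidestream mice by 0.38 ± 0.07 and fell in DIO sidestream mice by -0.46 ± 0.07, a difference between diets of -0.84 ± 0.10 (adjusted p = 1.14e-06). In air this probe set was already higher in DIO than in RW mice, by 0.41, which was also called. A second (1433448_at, mean 6.44) also rose in RW sidestream mice, by 0.19 ± 0.07 (adjusted p = 0.0256), and both were lower in DIO than in RW sidestream mice (-0.43 and -0.19, adjusted p = 2.12e-05 and 0.0226). The brightest Slc25a44 probe set (1436909_at, mean 6.70) changed by -0.08 ± 0.06 and 0.05 ± 0.06, neither called. Which of these probe sets follows the main transcript was not tested.

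**Figure D3:**
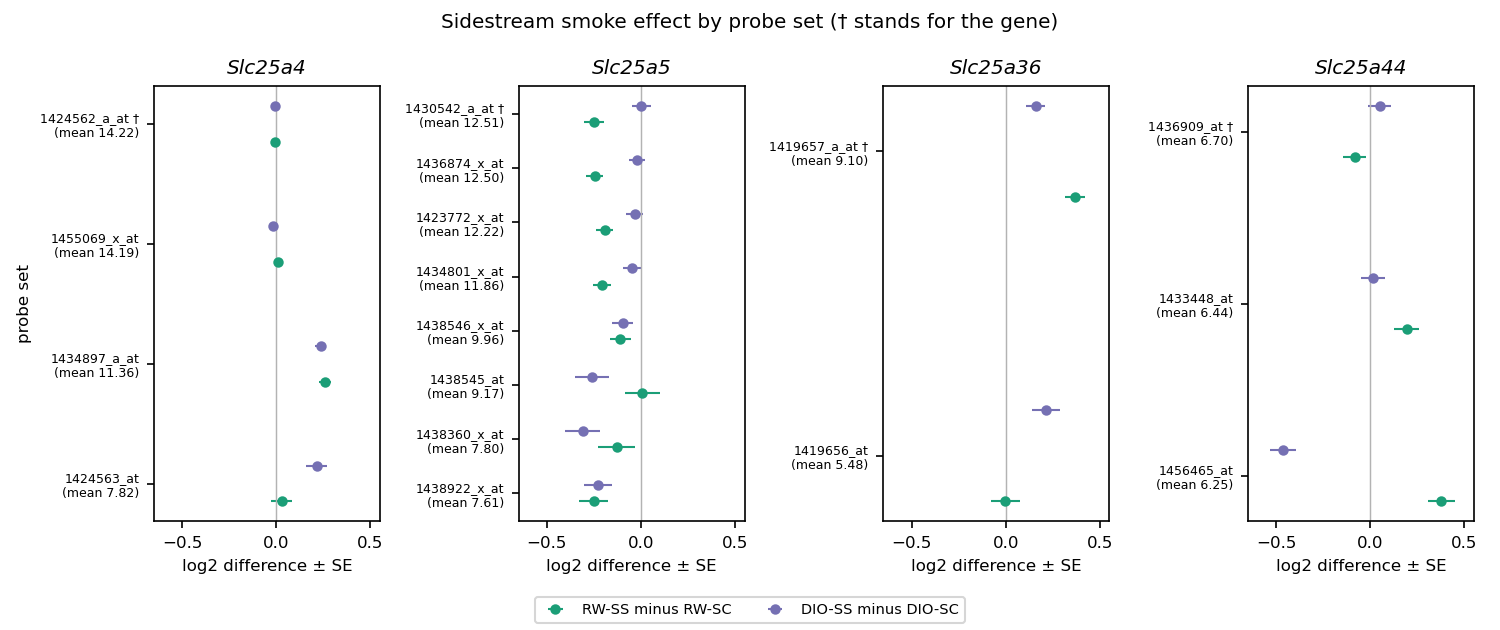
Log2 difference ± SE between sidestream smoke and air (horizontal axis) for each tested probe set of Slc25a4, Slc25a5, Slc25a36 and Slc25a44 (vertical axis, with the mean over 45 arrays), green for RW and violet for DIO mice. The brightest Slc25a4 probe set lies near 0 (-0.01 in both diets) while 1434897_a_at lies at 0.26 and 0.24, and 1456465_at of Slc25a44 lies on opposite sides of 0 in the 2 diets.

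The 4 tested carriers of dicarboxylates, aspartate and glutamate include members of the malate-aspartate shuttle. For diet in air Slc25a10 and Slc25a22 were called, where 20.2% of all genes were called. Slc25a13 was called in other comparisons and Slc25a11 in none. Slc25a12, listed with this group, was not among the 31 genes found by name. Slc25a10, which exchanges malate or succinate for phosphate and is abundant in white fat, was lower in obese mice. In air it was 7.47 to 7.80 in RW mice (median 7.70) and 7.32 to 7.48 in DIO mice (median 7.39), a difference of -0.26 ± 0.05 (adjusted p = 0.00011), with all 8 DIO arrays below the RW mean and a slight overlap. Under sidestream smoke the ranges, 7.50 to 7.71 and 7.17 to 7.48, did not overlap (-0.27 ± 0.05, adjusted p = 5.98e-05). Under mainstream smoke the difference was -0.15 ± 0.05 and not called. White fat cell markers were also lower in obese mice in air, and with their mean in the model the Slc25a10 difference was -0.23 (adjusted p = 0.000741). In the mean of both probe sets it was not called in air (adjusted p = 0.0935).

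Slc25a13, citrin, an aspartate-glutamate exchanger of the shuttle, had its highest mean of the 6 groups in RW mainstream mice. Its level there was 9.97 to 10.65 (median 10.34), against 10.02 to 10.24 in RW air (median 10.14), 9.59 to 10.17 in RW sidestream smoke (median 9.97) and 9.88 to 10.09 in DIO mainstream smoke (median 9.92). RW-MS exceeded air by 0.22 ± 0.07 (adjusted p = 0.0482), a call lost in 9 of 14 alternatives and without any of 33 single arrays. Without RW-MS 2, 6 and 8, the arrays with few atrial transcripts, it was 0.10 (adjusted p = 0.489). DIO-MS was below RW-MS by -0.39 ± 0.07 (adjusted p = 0.000318), and RW-SS below RW-MS by -0.39 ± 0.07 (adjusted p = 0.00101). Without these 3 arrays the 2 differences were -0.28 (adjusted p = 0.0127) and -0.28 (adjusted p = 0.0215), and the second was not called in a fit of both groups alone (adjusted p = 0.113). Slc25a22, a glutamate carrier, was 0.20 ± 0.07 higher in obese mice in air. Its adjusted p was 0.0499, and the call was lost without any of 27 single arrays. The oxoglutarate carrier Slc25a11 had group means between 11.19 and 11.28 and was not called.

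Carriers of amino acids and methyl donors showed a single member with a broad pattern, Slc25a26, which imports S-adenosylmethionine, the methyl donor for mitochondrial RNA and lipoate synthesis. In RW mice its level was 8.54 to 8.84 in air (median 8.79), 8.45 to 8.69 with mainstream smoke (median 8.60) and 8.41 to 8.68 with sidestream smoke (median 8.58). The changes were -0.16 ± 0.04 (adjusted p = 0.0193) and -0.21 ± 0.05 (adjusted p = 0.000684), with every smoke array below the air mean and some overlap. In DIO mice it was 8.70 to 8.91 in air (median 8.88), 8.80 to 8.99 with mainstream (median 8.86) and 8.83 to 9.10 with sidestream smoke (median 8.91), and neither smoke was called (0.01 ± 0.05 and 0.07 ± 0.04). Under either smoke all DIO arrays lay above all RW arrays, by 0.27 ± 0.05 (adjusted p = 0.00014) and 0.38 ± 0.05 (adjusted p = 3.27e-08). The sidestream effects differed between diets by 0.28 ± 0.06 (adjusted p = 0.00138), in every alternative and without any 1 array. A second probe set (1453886_a_at, mean 7.04) gave -0.18 and -0.21 for the smokes in RW mice, and 0.31 for diet under mainstream smoke. The RW mainstream call ended without RW-MS 2, 6 and 8 (-0.13, adjusted p = 0.159) and without RW-MS 8 alone (adjusted p = 0.0588).

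**Figure D4:**
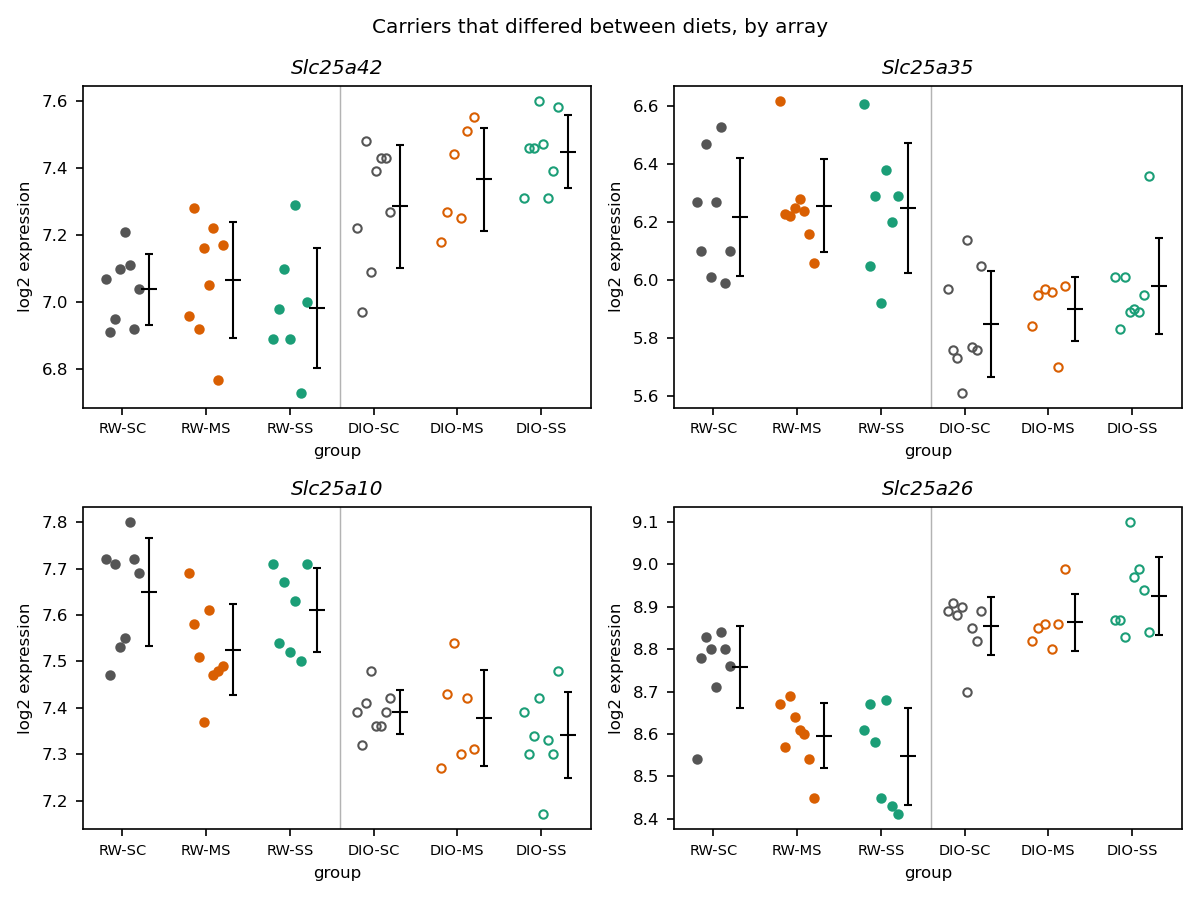
Log2 expression of Slc25a42, Slc25a35, Slc25a10 and Slc25a26 (vertical axes, each on its own range) by group (horizontal axis), 1 point per array, filled for RW and open for DIO, with the group mean ± SD beside it. Slc25a42 is higher and Slc25a35 and Slc25a10 lower in the DIO groups, and the Slc25a26 groups part under smoke, at 8.41 to 8.68 in RW-SS and 8.83 to 9.10 in DIO-SS.

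Slc25a38, Slc25a29 and Slc25a45 of that group were called in 1 or 2 comparisons each. Slc25a38, which imports glycine for heme synthesis, rose in RW sidestream mice from 7.20 to 7.39 (median 7.28) to 7.39 to 7.49 (median 7.43), by 0.14 ± 0.04 (adjusted p = 0.0157). Red cell markers rose in the same arrays, and with their mean in the model the Slc25a38 change was 0.13 (adjusted p = 0.117). Slc25a29, a carrier of basic amino acids, was lower in DIO than in RW mice under sidestream smoke, by -0.25 ± 0.06 (adjusted p = 0.000778) in every alternative and without any 1 array. Slc25a45 was higher in obese mice in air (6.66 to 6.87 against 6.40 to 6.73), by 0.19 ± 0.06 (adjusted p = 0.0271). That call ended with the white fat cell mean in the model (adjusted p = 0.0679) and without RW-SC 3, RW-SC 8 or DIO-SC 8 (adjusted p = 0.0666, 0.0549 and 0.0529).

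In the group of uncoupling-protein-like and other carriers, Slc25a30 was called in 4 comparisons, Slc25a35 in 3, Slc25a46 in 2 and Slc25a47 in 1. Slc25a30, a relative of the uncoupling proteins first found in kidney, rose with smoke in DIO mice from 7.34 to 7.61 in air (median 7.49) to 7.54 to 7.78 with mainstream (median 7.73) and 7.63 to 7.84 with sidestream smoke (median 7.78). The sidestream arrays did not overlap the air arrays. The changes were 0.21 ± 0.05 (adjusted p = 0.0186) and 0.27 ± 0.05 (adjusted p = 0.000121), the first lost without DIO-MS 5 (adjusted p = 0.0515) and in the mean of all probe sets (adjusted p = 0.0553). In RW mice Slc25a30 changed by 0.13 ± 0.05 and 0.11 ± 0.05, neither called, and the difference of the smoke effects between diets was not called. DIO exceeded RW mice by 0.20 ± 0.05 under mainstream (adjusted p = 0.0128) and 0.27 ± 0.05 under sidestream smoke (adjusted p = 0.000129). A second Slc25a30 probe set (1450018_s_at, mean 6.74) rose in DIO sidestream mice by 0.20 ± 0.05 (adjusted p = 0.00137), while 1420835_at (mean 6.12) changed by 0.02 ± 0.06. With mainstream smoke in DIO mice this pair of probe sets changed by 0.05 ± 0.05 and 0.10 ± 0.07, neither called. For diet under mainstream smoke the pair gave -0.05 and 0.03 (lower value first), neither called. Under sidestream smoke the diet difference was 0.06 and 0.24, with 1 of them called. For the difference of sidestream effects between diets it was 0.06 and 0.21, again with 1 called.

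Slc25a35, an orphan carrier, was lower in obese mice at every exposure. Its level was 5.99 to 6.53 in RW air (median 6.18) and 5.61 to 6.14 in DIO air (median 5.76), a difference of -0.37 ± 0.09 (adjusted p = 0.00205). Under mainstream smoke the ranges were 6.06 to 6.62 and 5.70 to 5.98 and did not overlap (-0.36 ± 0.09, adjusted p = 0.00915). Under sidestream smoke the difference was -0.27 ± 0.09 (adjusted p = 0.0196), a call lost without RW-SS 1 (adjusted p = 0.0693). With the white fat cell mean in the model the difference in air was -0.25 (adjusted p = 0.0128). Slc25a46, an outer membrane protein of mitochondrial shape, was higher in DIO than in RW sidestream mice, by 0.19 ± 0.05 (adjusted p = 0.00197). Array RW-SS 7, with the high Gapdh difference, was its lowest RW sidestream array, at 9.26 against 9.47 to 9.69 on the others. Slc25a47 rose in RW sidestream mice by 0.17 ± 0.05 (adjusted p = 0.0185), and without RW-SS 7 by 0.14 (adjusted p = 0.0551).

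The effects of sidestream smoke in the 2 diets differed for 7 of 28 carriers, 4 more positive and 3 more negative in obese mice (where 28.4% of all genes were called). They were Slc25a5, Slc25a17, Slc25a26 and Slc25a46 on the positive side, and Slc25a25, Slc25a36 and Slc25a45 on the negative side. Slc25a46 changed by -0.12 in RW and by 0.10 in DIO mice, neither called, a difference of 0.22 ± 0.07 (adjusted p = 0.0119). Its lowest RW sidestream array was RW-SS 7, at 9.26. Slc25a45 changed by 0.14 and -0.11, a difference of -0.25 ± 0.09 (adjusted p = 0.0367) that was lost without any of 10 single arrays. After a further quantile normalization 2 were positive and 4 negative, and Slc25a46 was not called (adjusted p = 0.2). Over all genes that setting turned 1700 positive and 941 negative calls into 658 and 885. The median difference was 0.049 over the carriers and 0.063 over all genes tested. For mainstream smoke no carrier's effect differed between diets by limma's adjusted p (4 had an unadjusted p below 0.05), where 0.226% of all genes were called.

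**Figure D5:**
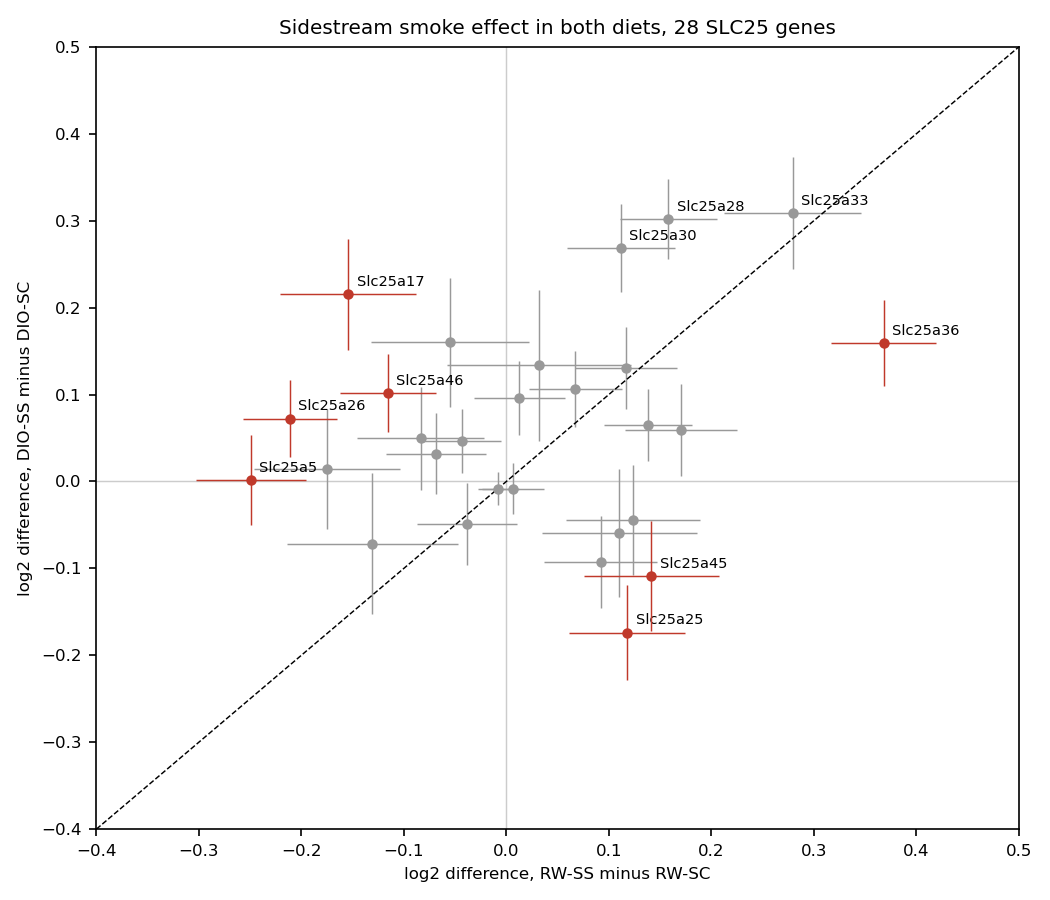
Log2 difference ± SE of sidestream smoke against air in RW mice (horizontal axis) and in DIO mice (vertical axis) for the 28 tested SLC25 genes, with the line of equal effects dashed. Red points, 7 genes, have an adjusted p below 0.05 for the difference between diets. Slc25a33 lies near the line at 0.28 and 0.31, and Slc25a36 lies below it at 0.37 and 0.16.

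Sidestream and mainstream smoke differed little for the carriers. In RW mice 2 of 28 were called, Slc25a36 higher and Slc25a13 lower with sidestream smoke (7.14%, where 5.82% of all genes were called). Without RW-MS 2, 6 and 8 there were 3, against 5.61% of all genes. When only both groups were fitted no carrier was called, and over all genes tested 1 was called higher and 3 lower. In DIO mice no carrier was called by limma (1 had an unadjusted p below 0.05), where 2.55% of all genes were called. Array weights called 1 carrier there, and over all 9295 genes 1353 higher and 611 lower.

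The members that were not tested lay under the brightness limit of 4.90. Slc25a2, a mitochondrial ornithine carrier, had a mean of 3.39, Slc25a24, an ATP-magnesium carrier, 4.07, and Slc25a53 4.897. The dimmest member tested was Slc25a48, at 5.21. Values this low stand close to the background of the array.

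Outside the name rule, 6 relatives were tested, of which 2 rose (Ucp3 and Slc25a20) and 1 fell (Mtch2, -0.11 ± 0.04, adjusted p = 0.0221) with diet in air, where 20.2% of all genes were called. Ucp3, an uncoupling protein of muscle mitochondria that responds to fatty acids, ran from 6.78 to 7.21 in RW air (median 7.02) and from 7.48 to 8.05 in DIO air (median 7.91). The difference was 0.86 ± 0.14 (adjusted p = 2.41e-05), 0.64 ± 0.15 under mainstream (adjusted p = 0.00439, and 0.89 without RW-MS 2, 6 and 8) and 1.02 ± 0.15 under sidestream smoke (adjusted p = 1.16e-06). Slc25a20, which imports acylcarnitines for fatty acid oxidation, was 10.74 to 10.90 in RW air and 11.22 to 11.46 in DIO air, a difference of 0.53 ± 0.04 (adjusted p = 4.67e-13). It also rose with sidestream smoke, by 0.36 ± 0.04 in RW (adjusted p = 1.41e-08) and 0.19 ± 0.04 in DIO mice (adjusted p = 0.000235), and these effects differed by -0.16 ± 0.06 (adjusted p = 0.0259). With mainstream smoke in RW mice Slc25a20 rose by 0.26 ± 0.04 (adjusted p = 1.63e-05), and by 0.22 without RW-MS 2, 6 and 8 (adjusted p = 0.00102). Slc25a37, mitoferrin 1 of red cell precursors, rose by 0.94 ± 0.17 in RW sidestream mice (adjusted p = 5.85e-05), from 7.33 to 7.67 in air to 7.94 to 9.56, in the group where the red cell markers were higher, a list that holds Slc25a37 itself. In RW mainstream mice, where the mean of these markers was 8.36, Slc25a37 rose by 0.61 ± 0.16 (adjusted p = 0.0161).

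Carrier proteins reach the inner membrane through the TOM complex, the small TIM chaperones and the TIM22 complex, and a list of 14 such genes was followed beside them. In RW mice 3 fell with mainstream and 4 with sidestream smoke and none rose (limma), where 4.00% and 13.0% of all genes were called lower, with medians of -0.039 and -0.065 beside 0.002 and 0.000 for all genes. Without RW-MS 2, 6 and 8 again 3 fell with mainstream smoke. Timm22, the channel that inserts carriers, changed by -0.30 ± 0.04 with sidestream smoke (adjusted p = 3.29e-07) and Timm8a1, a chaperone, by -0.40 ± 0.06 (adjusted p = 8.39e-06). In DIO sidestream mice 2 rose and 2 fell (31.8% of all genes were called, and after a further quantile normalization none of the list rose and 5 fell), among them Timm10b (0.13 ± 0.04, adjusted p = 0.00367) and Timm8a1 (-0.17 ± 0.06, adjusted p = 0.0322). The sidestream effects differed between diets for 8 of 14, 7 positive and 1 negative, where 28.4% of all genes were called, 1700 positive and 941 negative. After a further quantile normalization 2 of the list were positive and 1 negative. The difference was called for Timm22 at 0.24 ± 0.06 (adjusted p = 0.00201). The median difference was 0.135, beside 0.063 for all genes.

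Enzymes that make or use the carried substrates were counted in the same way. Of 24 tested, 2 rose and 5 fell with diet in air, where 6.92% of all genes rose and 13.3% fell. Mthfd2, of mitochondrial one-carbon metabolism, was higher by 0.61 ± 0.07 (adjusted p = 3.23e-08), and Bckdhb, of branched-chain keto acid breakdown, lower by -0.35 ± 0.05 (adjusted p = 5.67e-07). Acly, which cleaves exported citrate for fat synthesis, was lower by -1.30 ± 0.27 (adjusted p = 0.000598), from 8.67 to 11.24 in RW air to 8.38 to 9.09 in DIO air. White fat cell markers were lower in the same comparison, and their part in the Acly result was not tested. Sidestream smoke raised 6 and lowered 2 of the 24 in RW mice (11.7% of all genes rose and 13.0% fell), where Alas1, the first enzyme of heme synthesis, changed by -0.73 ± 0.09 (adjusted p = 2.14e-07) and Gclm, of glutathione synthesis, by 0.55 ± 0.08 (adjusted p = 3.57e-06). In DIO mice it raised 7 and lowered none (limma; 23.0% of all genes rose and 8.82% fell), or 3 and none after a further quantile normalization. Among the 7 were Pank1 (0.24 ± 0.05, adjusted p = 0.00111) and Coasy (0.30 ± 0.08, adjusted p = 0.00395), both enzymes of coenzyme A synthesis. Of 6 shuttle enzymes, Gpd2, the mitochondrial glycerol phosphate dehydrogenase, was lower in obese mice in air by -0.73 ± 0.23 (adjusted p = 0.0177). Of 14 other transport proteins of mitochondrial membranes, 1 rose and 3 fell with diet in air (20.2% of all genes were called), the falls being the sideroflexins Sfxn1, Sfxn2 and Sfxn4. Letm1, a cation exchanger, fell in RW sidestream mice by 0.30 ± 0.05 (adjusted p = 3.94e-05).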

How the data were processed

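Total RNA of 45 mouse hearts was hybridised to 1-colour Affymetrix arrays. The deposited values are log2 intensities summarised and normalized by RMA, per the submitters' processing notes (no version given there), and ran from 2.12 to 14.77. With 6 to 8 arrays in a group, changes can be estimated only with limited precision. In the main fit each p-value weighs a change against the spread between arrays within groups, estimated jointly from all 6 groups. That spread is therefore not the one of the compared groups alone.

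Groups came from the titles. Probe sets were named through the platform annotation, leaving out controls and probe sets with several symbols or none, and each gene was read from its brightest probe set by mean over the arrays. The dimmest 25% of 12393 genes were left out. A group-means model over all 45 arrays was fitted with limma 3.58.1 in R 4.3.3 (two-sided, Benjamini-Hochberg over 9295 genes, threshold 0.05). Tables were made with pandas 2.3.3 and figures with matplotlib 3.10.9, under Python 3.11.15. The fit was tested on simulated data. Alternatives were no filter, the mean of a gene's probe sets, every probe set as a row, array weights, fitting only the groups compared, further quantile normalization, replicate blocks, leaving out arrays, and marker means as covariates. White fat and red cell covariates, and the alternatives for lists beside the carriers, were chosen after seeing the data. The members and gene lists were chosen with earlier results of these data known. Every member could be named, with array ranges for up to 8 members by smallest adjusted p in DIO-SC against RW-SC and in RW-SS against RW-SC and up to 4 in each other comparison. Other lists gave up to 4 genes a comparison.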

Additional observations from a re-analysis of the deposited data

Results flagged for a closer look

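Single arrays stood apart from the rest of their group in 14 of 120 checks (20 called carriers in 6 groups), where about 1 in 20, or 6, would by chance. Array RW-SS 7, with the high Gapdh difference, was low for Slc25a5 (11.92) and Slc25a13 (9.59). Slc25a26 was low in RW-SC 1 (8.54) and DIO-SC 5 (8.70) and high in DIO-MS 6 (8.99). Slc25a28, the iron carrier, was low in RW-MS 7 (7.91) and DIO-SC 5 (7.69) and high in DIO-SS 2 (8.35). Slc25a35 was high in RW-MS 1 (6.62) and DIO-SS 8 (6.36). Slc25a45 was low in RW-MS 1 (6.13). Slc25a46 was low in RW-MS 7 (9.29) and high in DIO-SS 7 (9.80). Slc25a51 was high in DIO-SS 8 (10.03).

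The effect of sidestream smoke differed between diets, by an interaction term in limma, for 7 of 28 carriers, where 28.4% of all genes tested were called for the same term. The DIO effect minus the RW effect was 0.37 for Slc25a17, 0.28 for Slc25a26, 0.25 for Slc25a5, 0.22 for Slc25a46, -0.21 for Slc25a36, -0.25 for Slc25a45 and -0.29 for Slc25a25.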

How the results depend on the processing

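Of 55 called pairs of a carrier and a comparison, 25 kept their call in every alternative and without any 1 array. The 5 carriers called in RW-MS against RW-SC became 3 with no filter, 3 with the mean of all probe sets, 1 when only the groups compared were fitted, 1 without RW-MS 2, 6 and 8, 2 with the atrial covariate and 1 with the red cell covariate. The 7 of RW-SS against RW-SC became 4 with the red cell covariate and 6 without RW-SS 7. With that covariate the 1083 higher and 1205 lower calls over all genes became 462 and 507. In RW-MS against RW-SC, 266 higher and 372 lower calls over all genes became 126 and 161 with it. They became 176 and 226 when only the groups compared were fitted, and 160 and 220 without RW-MS 2, 6 and 8. With no filter they were 216 and 306 (of 12393 genes), with the mean of all probe sets 216 and 352, and with the atrial covariate 237 and 308. The mean of all probe sets gave 1 carrier for DIO-MS against DIO-SC (2 in the main analysis), 11 for DIO-SS against DIO-SC (7), 5 for DIO-SC against RW-SC (9) and 1 for RW-SS against RW-MS (2, and 0 when only the groups compared were fitted). With that mean 3.31%, 28.7%, 17.9% and 5.35% of all genes were called in these comparisons. Array weights gave 1 for DIO-SS against DIO-MS (0), beside 1353 higher and 611 lower over all genes. The mean of all probe sets also turned directions, to 0.0713 for Slc25a4 and 0.16 for Slc25a44 in RW-SS against RW-SC, to 0.11 for Slc25a4, -0.12 for Slc25a5 and -0.13 for Slc25a44 in DIO-SS against DIO-SC, to -0.20 for Slc25a44 in DIO-SS against RW-SS, and to 0.0029 for Slc25a36 and -0.29 for Slc25a44 in the difference of sidestream effects. Here dim probe sets enter with equal weight. The cause of the other changes was not tested.

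Leaving out 1 array gave 1 to 5 carriers for RW-MS against RW-SC (1 without RW-MS 8, 2 without RW-SC 5 or RW-MS 6, 3 without any of RW-SC 1, 3, 6, 7 and RW-MS 1, 2, 4, 5), 6 to 10 for RW-SS against RW-SC, 1 to 3 for DIO-MS against DIO-SC (1 without DIO-MS 5), 6 to 9 for DIO-SS against DIO-SC, 7 to 10, 6 to 7 and 9 to 11 for diet in air, mainstream and sidestream smoke, 2 to 3 for RW-SS against RW-MS, 0 to 1 for DIO-SS against DIO-MS (1 without RW-MS 7, DIO-MS 5 or DIO-MS 6), and 5 to 8 for the difference of sidestream effects. The matching counts over all genes with 1 array left out are not given here. Titles and descriptions number the replicates, but same-numbered arrays did not deviate together (median correlation -0.005 and -0.027 over 106 pairs). With the title number as a replicate block, 4 carriers were called in RW-MS against RW-SC and 9 in DIO-SS against RW-SS, and with the description number 8 for the difference of sidestream effects. Over all genes these settings gave 231 higher and 351 lower, 1860 and 1218, and 1467 and 872.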
